A study of Mus musculus with 6 samples.

Results

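The genes described here encode 42 lysosomal hydrolases, their protein cofactors and lysosomal membrane proteins, with the cathepsins and the proton pump left out. They were taken by gene symbol from 41388 genes in the deposited tables and listed by function, with earlier results of these data known. All 42 were found. They comprise 9 genes of sphingolipid and glycolipid breakdown, 2 of sterol handling, 8 of glycosaminoglycan breakdown, 5 of glycoprotein breakdown, 8 other soluble lysosomal proteins and 10 lysosomal membrane proteins.

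RNA was measured by bulk RNA-seq in macrophages from the aortic intima of C57BL/6 mice lacking apolipoprotein E (ApoE -/-), which the series design describes as 6 animals kept on a Western diet for 28 weeks. Foamy cells were live CD64+CD11b+ cells with high side scatter and a high signal of BODIPY, a dye of neutral lipid, and the non-foamy sort took CD64+CD11b+ cells with little of either. There were 3 libraries per population, and genotype and diet were the same for both. The labels do not say which animals went into which library, and the p-values therefore reflect library-to-library spread alone, which may be technical.

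Lysosomes are acidic organelles in which hydrolases cut lipids, sugars, proteins and nucleic acids into pieces that membrane transporters return to the cytosol. In a macrophage they receive material taken up from outside, including lipoproteins, whose cholesteryl esters are cut by acid lipase and whose free sterol leaves through the proteins NPC2 and NPC1. Many lysosomal genes carry a CACGTG-containing element near their start that is bound by TFEB and related factors.

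Libraries held 15628627 to 24619075 counts in genes, and 15595 to 17757 genes had a count in foamy against 19380 to 24701 in non-foamy libraries. Levels are CPM (counts relative to the library total) after TMM scaling, which sets libraries to a common level for most genes, and values are listed for replicates 1 to 3 in order. Each fold change divides foamy by non-foamy, and a gene is said to have risen or fallen where edgeR's quasi-likelihood test gave a Benjamini-Hochberg adjusted p under 0.05. The macrophage genes Cd68 and Lyz2 were abundant in all 6 libraries, at 5639 to 12239 and 10758 to 35331 CPM. B cell, smooth muscle and endothelial markers were low, and the genes of the T cell receptor complex Cd3d, Cd3e, Cd3g and Trac were at 0 or near it. Dendritic cell markers summed to 72.2 to 91.4 CPM in foamy and 103 to 317 in non-foamy libraries, with 0 of 3 tested genes called. Neutrophil markers summed to 14.9 to 27.5 CPM in foamy and 10.8 to 40.0 in non-foamy libraries. Fibroblast markers were uneven, summing to 6.69, 3.18 and 171 CPM in foamy and 130, 14.2 and 307 in the non-foamy libraries.

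Some members have matching letters in the start region, and those of the genes that rose are shown because the same short element recurs in them. RefSeq's table for GRCm38.p6 gives 250 bases before to 50 bases after the start for 36 of the 42 members (none for Hgsnat, Asah1, Galns, Plbd2, Npc1 and Aga). A search of both strands found TCACGTG in 9 of the 36 (25.0%) and in 3.77% of all 32851 windows of that length. CACGTG, which lies within it, was in the same 9 members and in 7.15% of all windows. Bases run 5′ to 3′ on the gene's strand, capitals mark TCACGTG on either strand, and each of the following 4 runs ends at most 30 bases inside the gene as the deposited tables place it. Lamp1 is read from chr8:13158911-13159160 (+), Gla from chrX:134601096-134601255 (-), Glb1 from chr9:114400828-114401077 (+) and Naglu from chr11:101069844-101070041 (+).
Lamp1: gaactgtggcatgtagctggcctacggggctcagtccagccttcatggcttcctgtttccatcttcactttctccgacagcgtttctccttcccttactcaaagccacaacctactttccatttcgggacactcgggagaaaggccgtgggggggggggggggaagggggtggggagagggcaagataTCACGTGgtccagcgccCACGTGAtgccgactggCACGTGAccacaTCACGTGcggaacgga
Gla: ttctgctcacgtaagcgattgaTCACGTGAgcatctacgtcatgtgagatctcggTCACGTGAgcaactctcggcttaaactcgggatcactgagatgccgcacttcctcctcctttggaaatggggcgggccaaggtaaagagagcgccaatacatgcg
Glb1: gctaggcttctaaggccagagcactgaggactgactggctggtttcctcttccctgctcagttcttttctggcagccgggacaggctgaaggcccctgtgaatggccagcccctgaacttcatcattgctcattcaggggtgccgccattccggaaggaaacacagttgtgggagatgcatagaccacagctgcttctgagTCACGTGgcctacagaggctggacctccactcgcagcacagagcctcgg
Naglu: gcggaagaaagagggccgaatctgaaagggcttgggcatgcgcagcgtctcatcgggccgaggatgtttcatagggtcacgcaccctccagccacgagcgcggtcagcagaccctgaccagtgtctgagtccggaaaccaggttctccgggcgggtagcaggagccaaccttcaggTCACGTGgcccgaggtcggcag

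Lamp1 held 4 copies, Gla 2 copies, and Glb1 and Naglu 1 copy each. The longer palindrome TCACGTGA was in 3 members, Gla, Cln3 and Mcoln1, and in 0.974% of all windows. The sites in Cln3 (chr7:126583340-126583369, -) and Mcoln1 (chr8:3500462-3500491, +) are printed for comparison with those in Gla, since neither of these genes passed the test. These are short windows around the element and lie inside the genes as the deposited tables place them.
Cln3: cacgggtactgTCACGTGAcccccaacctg
Mcoln1: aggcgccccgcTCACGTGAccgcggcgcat
Of the 14 members that rose and have a window, 4 held TCACGTG, and of the 22 that did not pass, 5 did (Arsa, Cln3, Gaa, Mcoln1 and Sgsh). A match in these letters is a description of the window and not a measured site.

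Summed over the set, RNA of the 42 genes was higher in foamy cells. Their summed level was 32178, 27688 and 33801 CPM in foamy and 15924, 18110 and 17969 in the non-foamy libraries. Every foamy sum lay above every non-foamy sum, with means of 31222 ± 3167 and 17334 ± 1223 CPM (SD, n = 3) and a ratio of 1.80. Cd63, Gm2a, Npc2, Lipa, Hexa, Lamp2, Psap and Laptm5 together made up 67.8% of the foamy and 68.0% of the non-foamy mean. Of these, Gm2a, Lamp2 and Laptm5 did not pass the test. As a share of all counts in genes, with no scaling between libraries, the members took 2.79, 2.67 and 3.04% against 1.88, 1.95 and 1.85%. In bulk samples, fewer cells of a type and less RNA per cell cannot be told apart.

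All 42 members passed the filter on low counts, and 17 rose in foamy cells while 0 fell. Over all 11303 genes tested with edgeR, 2.50% rose and 2.90% fell. Without adjustment, 28 members had an edgeR p under 0.05, all of them higher in foamy, but the share of all tested genes at that p was not counted. DESeq2 called 21 members higher and 0 lower, and over all 11303 genes it called 528 (4.67%) higher and 645 lower. All 3 foamy values exceeded all 3 non-foamy values in 31 members, against 12.4% of tested genes, and lay below them in 0 members, against 13.3%. In the other 11 the groups overlapped. These counts were made after TMM scaling. Taken only relative to the library total, the groups also overlapped in Asah1, Galc, Arsa, Neu1, Gaa, Acp2, Plbd2, Scarb2 and Cln3. The share of all tested genes apart without scaling was not counted. A member that did not pass is not thereby shown to be alike in the groups. The median log2 fold change was 0.82 over the members and -0.04 over all tested genes. Single members ranged from -0.44 for Ids to 2.73 for Pld3, and 38 were above 0. When libraries were scaled by total counts only, the median of all tested genes moved by -0.27, 12 members were called higher and 0 lower, 10 were below 0, and the members' median was 0.57.

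**Figure D1:**
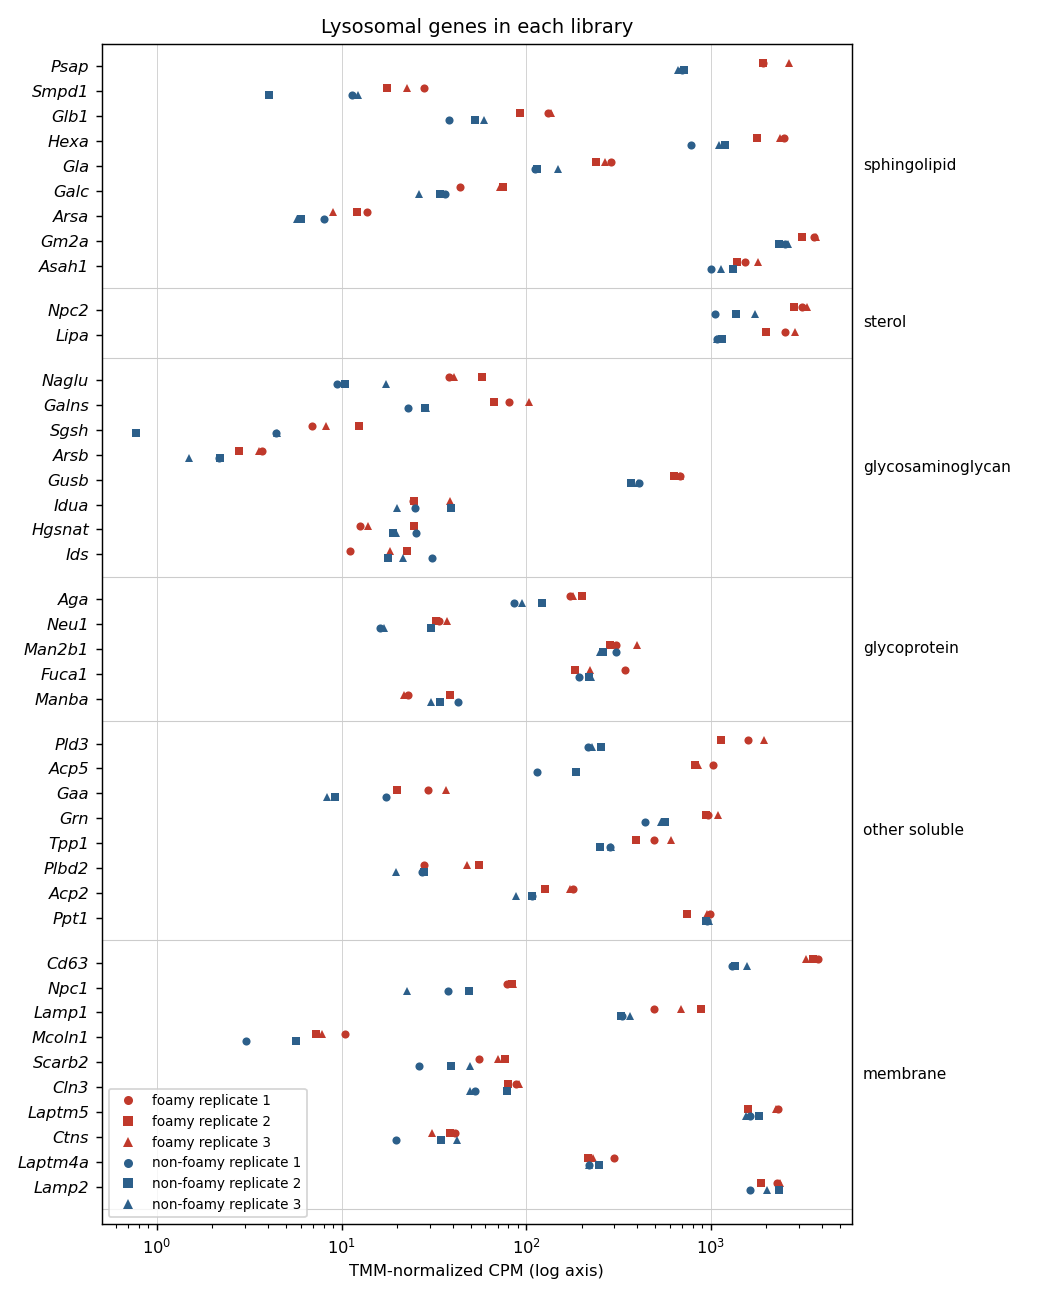
TMM-normalized CPM (log axis) of each of the 42 genes in each library, red for foamy and blue for non-foamy, with marker shape giving the replicate and genes grouped by class. Red and blue points were fully apart in 31 genes, including all 9 of sphingolipid breakdown, and overlapped in 11.

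Among the 10 genes of the membrane class 3 rose, with a median log2 fold change of 0.67. Among the other 32 members, which are soluble proteins but for a few such as the membrane-bound enzyme gene Hgsnat, 14 rose, with a median of 0.86. The difference between these counts was not tested. By class the ratio of summed means ran from 1.29 for glycoprotein breakdown to 2.23 for both sterol handling and the other soluble proteins. As a plain share of counts, the glycoprotein class overlapped between groups (0.076, 0.072 and 0.077% in foamy against 0.076, 0.072 and 0.064% in non-foamy libraries), while each of the other 5 classes took a larger share in every foamy library.

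**Figure D2:**
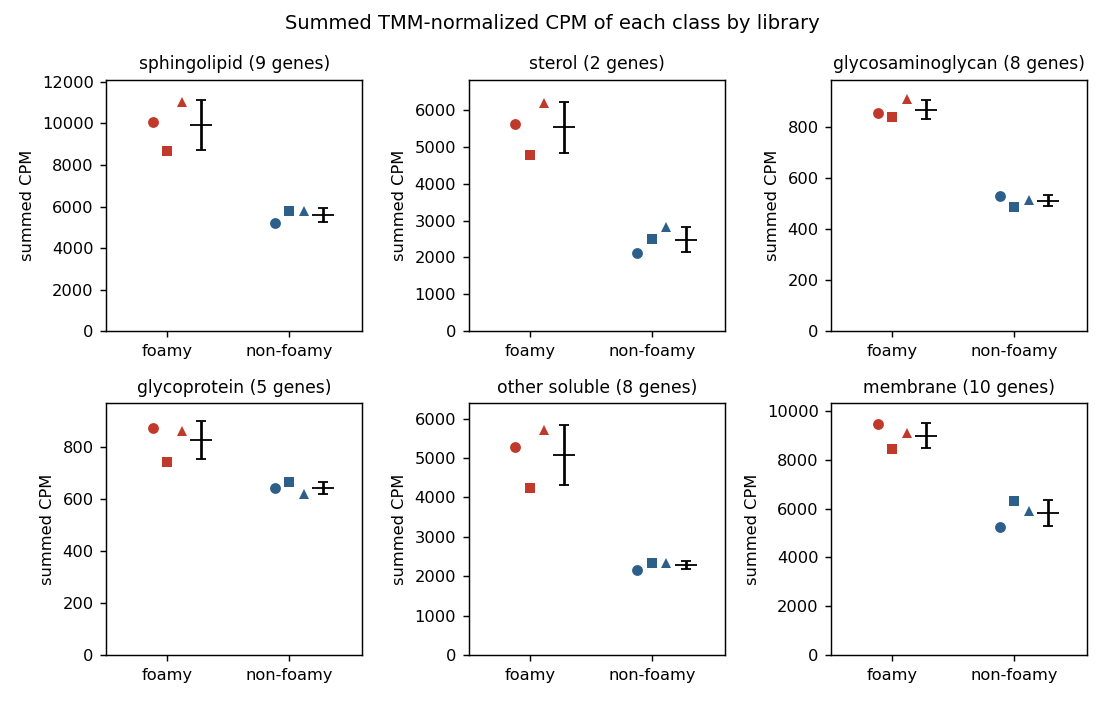
Summed TMM-normalized CPM of each class by library, red for foamy and blue for non-foamy, with marker shape giving the replicate and black bars the mean and SD (n = 3); each vertical axis starts at 0. The foamy points lay above the non-foamy points in every class, with the smallest ratio of means, 1.29, in glycoprotein breakdown, whose plain share of counts overlapped between groups.

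After TMM scaling, every foamy value exceeded every non-foamy value in 9 of 9 genes of sphingolipid and glycolipid breakdown. Without that scaling, the groups overlapped in Asah1, Galc and Arsa. In this class 4 genes rose (Psap, Gla, Hexa and Glb1). The summed level of the class was 9927 ± 1198 in foamy and 5603 ± 333 CPM in the non-foamy libraries (SD, n = 3), a ratio of 1.77. Psap encodes prosaposin, the precursor of the saposins that present sphingolipids to their hydrolases. Psap stood at 1923, 1910 and 2642 CPM in foamy and at 699, 715 and 664 in the non-foamy libraries. The non-foamy values were nearly equal and foamy replicate 3 was the highest. Its edgeR log2 fold change was 1.64 (SE 0.18, adjusted p = 0.00045), a 3.12-fold difference.

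Hexa, which removes a terminal sugar from ganglioside GM2, had 2495, 1789 and 2375 CPM in foamy and 785, 1188 and 1111 in the non-foamy libraries. The lowest foamy value was still above the highest non-foamy one, with an edgeR log2 fold change of 1.11 (SE 0.21, adjusted p = 0.011). Gla, the alpha-galactosidase that cuts globotriaosylceramide, stood at 290, 238 and 269 against 111, 114 and 148 CPM (edgeR log2 fold change 1.09, SE 0.19, adjusted p = 0.0069). Glb1, the beta-galactosidase that cuts ganglioside GM1, stood at 131, 92.6 and 137 against 38.3, 53.1 and 59.4 CPM (edgeR log2 fold change 1.25, SE 0.24, adjusted p = 0.012). The log2 fold changes of these 3 sugar-cutting enzymes lay within 1 SE of each other. Glb1 shares 7.31% of its exon bases with Tmppe on the same strand. The Hexa and Glb1 calls were lost without foamy replicate 1 (log2 fold changes 1.03 and 1.20) or foamy replicate 3 (1.07 and 1.16).

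The other 5 genes of the class did not pass. Galc, which cuts galactosylceramide, had 43.7, 74.5 and 72.1 CPM in foamy and 36.1, 34.0 and 26.4 in the non-foamy libraries (edgeR log2 fold change 0.98, SE 0.27, adjusted p = 0.063). Smpd1, acid sphingomyelinase, had 28.0, 17.6 and 22.8 against 11.4, 4.07 and 12.3 CPM (edgeR log2 fold change 1.30, SE 0.44, adjusted p = 0.13). Both ranked in the lower part of the members by RPKM, the level per length of all annotated exons of a gene. After TMM scaling the groups did not overlap in either gene. In RPKM, which carries no TMM scaling, those of Galc did (9.92, 18.8 and 16.9 in foamy against 11.2, 9.57 and 7.12 in non-foamy libraries). Gm2a, the activator that presents ganglioside GM2 to its hydrolase, averaged 3487 ± 311 against 2504 ± 142 CPM (log2 fold change 0.48, edgeR adjusted p = 0.13). Asah1, acid ceramidase, averaged 1578 ± 213 against 1156 ± 162 CPM (0.45, adjusted p = 0.20), and Arsa, which removes sulfate from sulfatide, 11.6 ± 2.42 against 6.61 ± 1.28 CPM (0.82, adjusted p = 0.34). Arsa shares 18.8% of its exon bases with a transcript on the opposite strand, and whether the counting used strand is not given in the sources used here.

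The 2 soluble genes of sterol handling both rose. Lipa, the acid lipase that cuts cholesteryl esters and triglycerides, stood at 2511, 1978 and 2854 CPM in foamy and at 1077, 1144 and 1081 in the non-foamy libraries. Npc2, which carries the freed cholesterol to the membrane protein NPC1, stood at 3106, 2807 and 3327 against 1049, 1365 and 1735 CPM. In both, each foamy library exceeded each non-foamy library. Their log2 fold changes were 1.15 for Lipa (SE 0.18, edgeR adjusted p = 0.0040) and 1.16 for Npc2 (SE 0.20, edgeR adjusted p = 0.0076), that is 2.22- and 2.23-fold.

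Of the 8 genes of glycosaminoglycan breakdown, 3 rose (Galns, Naglu and Gusb), and the summed level was 869 ± 36.2 against 511 ± 21.7 CPM. Most of that sum was Gusb, which averaged 664 CPM in foamy and 394 in the non-foamy libraries. Galns, a sulfatase of keratan and chondroitin sulfate, stood at 80.5, 67.0 and 103 CPM in foamy and at 22.8, 28.4 and 28.6 in the non-foamy libraries. Its groups were well apart, with an edgeR log2 fold change of 1.65 (SE 0.25, adjusted p = 0.0030). Naglu, a glucosaminidase of heparan sulfate, stood at 38.2, 57.8 and 40.4 against 9.42, 10.4 and 17.4 CPM (edgeR log2 fold change 1.87, SE 0.33, adjusted p = 0.0071). Gusb, beta-glucuronidase, stood at 680, 628 and 683 against 411, 370 and 401 CPM. It was the most abundant of the class per exon length, with little spread in either group. Its edgeR log2 fold change was 0.75 (SE 0.16, adjusted p = 0.019). The Gusb call was lost without foamy replicate 1 (0.74), 2 (0.80) or 3 (0.74), without non-foamy replicate 2 (0.71), with the replicate number as a block (0.75) and when libraries were scaled by total counts only (0.48).

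Heparan sulfate is cut in turn by several of these enzymes, of which Naglu and Gusb rose and the others gave no call. Sgsh, the heparan N-sulfatase, had 6.93, 12.4 and 8.25 CPM in foamy and 4.44, 0.77 and 4.49 in the non-foamy libraries (edgeR log2 fold change 1.5, SE 0.67, adjusted p = 0.25). Hgsnat, the membrane-bound acetyltransferase of the pathway, had 12.6, 24.7 and 13.9 against 25.2, 19.0 and 19.7 CPM (edgeR log2 fold change -0.32, SE 0.35, adjusted p = 0.71). Idua, which removes iduronic acid, had 24.3, 24.7 and 38.6 against 25.1, 39.3 and 19.9 CPM (0.06, SE 0.33, edgeR adjusted p = 0.96, and -0.22 with total counts only), and Ids, an iduronate sulfatase, had the lowest fold change of all members (-0.44, SE 0.36, edgeR adjusted p = 0.59). In Hgsnat, Idua and Ids the groups overlapped. Arsb, arylsulfatase B, averaged 3.35 ± 0.49 against 1.95 ± 0.40 CPM (0.78, SE 0.70). It shares 48.8% of its exon bases with an annotated transcript on the opposite strand that had 0 counts in every library, and Sgsh shares 21.6% with Card14 on the opposite strand.

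Glycoprotein breakdown had the smallest ratio of summed means, with 1 of 5 genes past the test, 2 genes whose groups were apart and a median log2 fold change of 0.28. Aga, aspartylglucosaminidase, which cuts the bond between an N-glycan and its asparagine, stood at 172, 200 and 180 CPM in foamy and at 86.1, 121 and 95.5 in the non-foamy libraries. Its edgeR log2 fold change was 0.87 (SE 0.20, adjusted p = 0.026). The Aga call was lost when any 1 foamy replicate was left out (0.81 to 0.92), without non-foamy replicate 1 (0.76) or 3 (0.84), with the block (0.88) and with total counts only (0.61). Neu1, the lysosomal sialidase, had 33.8, 32.5 and 37.3 against 16.2, 30.6 and 16.9 CPM (edgeR log2 fold change 0.70, SE 0.31, adjusted p = 0.25). Here non-foamy replicate 2 came close to the foamy range.

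The glycosidase genes Man2b1, Fuca1 and Manba, listed in this class, gave no call. Man2b1, the alpha-mannosidase, averaged 330 ± 61.3 against 273 ± 27.9 CPM (log2 0.28, SE 0.19), and Fuca1, the fucosidase, 250 ± 81.7 against 212 ± 17.2 CPM (0.24, SE 0.23). Manba, the beta-mannosidase, averaged 27.9 ± 9.56 against 35.8 ± 6.37 CPM (-0.36, SE 0.30), with edgeR adjusted p between 0.50 and 0.67 for the 3 genes. Under total-count scaling the values were -0.01 for Man2b1 and -0.05 for Fuca1. The groups overlapped in all 3.

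The 2 largest fold changes of the set were in the other soluble proteins. Pld3, a lysosomal exonuclease of single-stranded nucleic acids, stood at 1581, 1128 and 1940 CPM in foamy and at 218, 255 and 228 in the non-foamy libraries. The lowest foamy value was several times the highest non-foamy one, and the log2 fold change was 2.73 (SE 0.22, edgeR adjusted p = 6.1e-05), or 6.64-fold. Acp5, tartrate-resistant acid phosphatase, stood at 1024, 824 and 857 against 114, 186 and 185 CPM. Its groups were likewise far apart, with an edgeR log2 fold change of 2.48 (SE 0.22, adjusted p = 0.00012), or 5.57-fold.

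Grn, progranulin, which is cut into granulins inside lysosomes, had 969, 946 and 1094 CPM in foamy and 439, 563 and 535 in the non-foamy libraries (edgeR log2 fold change 0.97, SE 0.17, adjusted p = 0.0077). Tpp1, tripeptidyl peptidase, had 490, 395 and 611 against 283, 251 and 289 CPM (0.86, SE 0.19, edgeR adjusted p = 0.026). The groups were apart in both. The Tpp1 call was lost without foamy replicate 1 (0.88) or 3 (0.70), without non-foamy replicate 2 (0.80) or 3 (0.91), with the block (0.84) and with total counts only (0.58). Gaa, the glucosidase of glycogen, averaged 28.7 ± 8.57 against 11.7 ± 4.97 CPM (1.30, SE 0.38, edgeR adjusted p = 0.079), and was called without non-foamy replicate 1 (1.70). Acp2, lysosomal acid phosphatase, averaged 159 ± 28.8 against 101 ± 11.2 CPM (0.66, adjusted p = 0.092), and Plbd2, a phospholipase B-like protein, 43.8 ± 14.0 against 24.9 ± 4.62 CPM (0.81, adjusted p = 0.17). Ppt1, which removes palmitate from proteins, was the member of this class with overlapping groups, at 985, 746 and 952 against 951, 945 and 974 CPM. Its log2 fold change was -0.10 (SE 0.17, adjusted p = 0.84 by edgeR).

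**Figure D3:**
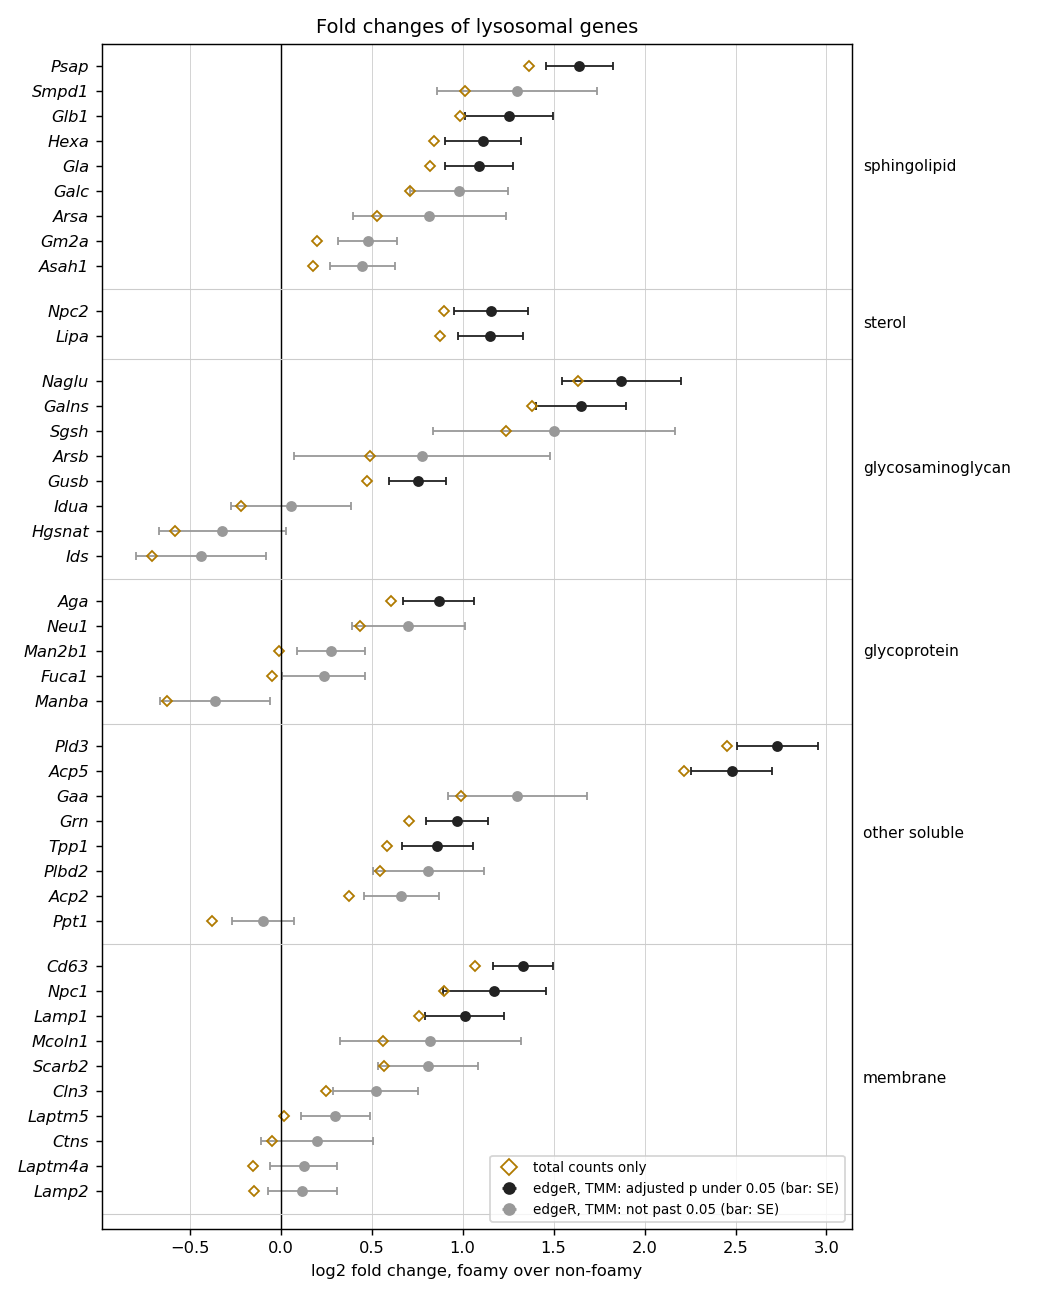
Log2 fold change, foamy over non-foamy, of each of the 42 genes by class; filled points with SE bars are edgeR with TMM scaling (black where the adjusted p was under 0.05, grey otherwise) and open diamonds are total counts only. Pld3 (2.73) and Acp5 (2.48) lie farthest right, and 6 genes at or above 0 with TMM lie below 0 with total counts only.

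Of the 10 membrane proteins, 3 rose (Cd63, Lamp1 and Npc1), and the summed level was 8993 ± 521 against 5818 ± 535 CPM, a ratio of 1.55. Cd63, a tetraspanin of late endosomes and lysosomes, stood at 3790, 3577 and 3264 CPM in foamy and at 1302, 1354 and 1564 in the non-foamy libraries. Its groups were far apart, with an edgeR log2 fold change of 1.33 (SE 0.17, adjusted p = 0.00091). Npc1, the membrane sterol transporter that receives cholesterol from NPC2, stood at 78.7, 83.9 and 85.1 against 38.0, 49.1 and 22.7 CPM (edgeR log2 fold change 1.18, SE 0.28, adjusted p = 0.034). The foamy values were nearly equal, and the non-foamy values were all lower and more widely spread. The Npc1 call was lost when any 1 foamy replicate was left out (1.16 to 1.22), without non-foamy replicate 1 (1.20) or 3 (0.94), with the block (1.24) and with total counts only (0.90).

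The major membrane glycoproteins LAMP-1 and LAMP-2, whose sugar-coated inner domains line the organelle, gave different calls, Lamp1 rising and Lamp2 not passing the test. Lamp1 had 491, 885 and 692 CPM in foamy and 330, 328 and 366 in the non-foamy libraries. The foamy values spread widely but lay above all non-foamy values (edgeR log2 fold change 1.01, SE 0.22, adjusted p = 0.020). Lamp2 had 2274, 1878 and 2368 against 1627, 2352 and 2023 CPM, with overlapping groups (0.12, SE 0.19, edgeR adjusted p = 0.82, and -0.15 with total counts only). The Lamp1 call was lost without foamy replicate 2 (0.80) or 3 (1.02), without non-foamy replicate 1 or 2 (0.99 each), with the block (0.97) and with total counts only (0.76).

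Scarb2, an integral membrane protein of lysosomes, had 55.2, 76.3 and 70.7 CPM in foamy and 26.2, 39.1 and 50.0 in the non-foamy libraries, apart but not past the test (edgeR log2 fold change 0.81, SE 0.28, adjusted p = 0.13). Mcoln1, a lysosomal cation channel, averaged 8.49 ± 1.68 against 4.79 ± 1.52 CPM (0.82, SE 0.50, adjusted p = 0.43), and Cln3, the protein altered in juvenile Batten disease, 86.9 ± 6.06 against 60.5 ± 16.2 CPM (0.52, adjusted p = 0.26). Ctns, the cystine exporter, averaged 37.0 ± 5.51 against 32.1 ± 11.3 CPM with overlap (0.20, adjusted p = 0.81). The transmembrane proteins Laptm5 and Laptm4a averaged 2055 ± 410 against 1668 ± 137 CPM (0.30, adjusted p = 0.46) and 249 ± 44.5 against 228 ± 17.9 CPM (0.13, adjusted p = 0.80), also with overlap. Ctns and Laptm4a turned to -0.05 and -0.15 with total counts only.

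Per exon length, Cd63 was the most abundant member in both populations. It stood at 3128 ± 259 RPKM (deposited CPM per kilobase of a gene's exons, SD, n = 3) in foamy and 1491 ± 75.6 RPKM in non-foamy libraries. The next in foamy were Hexa (1077 ± 131 RPKM), Npc2 (858 ± 50.8 RPKM) and Gm2a (767 ± 36.4 RPKM). In non-foamy libraries the next were Gm2a (665 ± 54.9 RPKM), Hexa (599 ± 95.4 RPKM) and Laptm5 (483 ± 52.3 RPKM). Between neighbours in these orders the ranges over 3 libraries overlapped in 27 of 41 steps in foamy and 34 of 41 in non-foamy. Pld3 stood at rank 9 in foamy and 16 in non-foamy, Acp5 at 7 and 14, and Ppt1 at 13 and 8. The deposited RPKM carries no TMM scaling, so these values are levels within a population.

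Ratios between partners within a library do not depend on scaling between libraries. The 5 pairs given were chosen with the values known and are a description. An exact permutation test of the group labels was run, but with 3 against 3 libraries its p cannot fall below 0.1. No conclusion is drawn from it. The ratio of RPKM of Hexa to its activator Gm2a was 1.52, 1.27 and 1.42 in foamy and 0.69, 1.12 and 0.93 in non-foamy libraries. Psap to Asah1 gave 1.55, 1.70 and 1.80 against 0.86, 0.67 and 0.72, with prosaposin RNA above ceramidase RNA per length in every foamy library and below it in every non-foamy one. Lamp1 to Lamp2 gave 0.91, 2.00 and 1.24 against 0.86, 0.59 and 0.77. Npc1 to Npc2 gave values near 0.008 in foamy and between 0.004 and 0.011 in non-foamy libraries, with overlap.

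**Figure D4:**
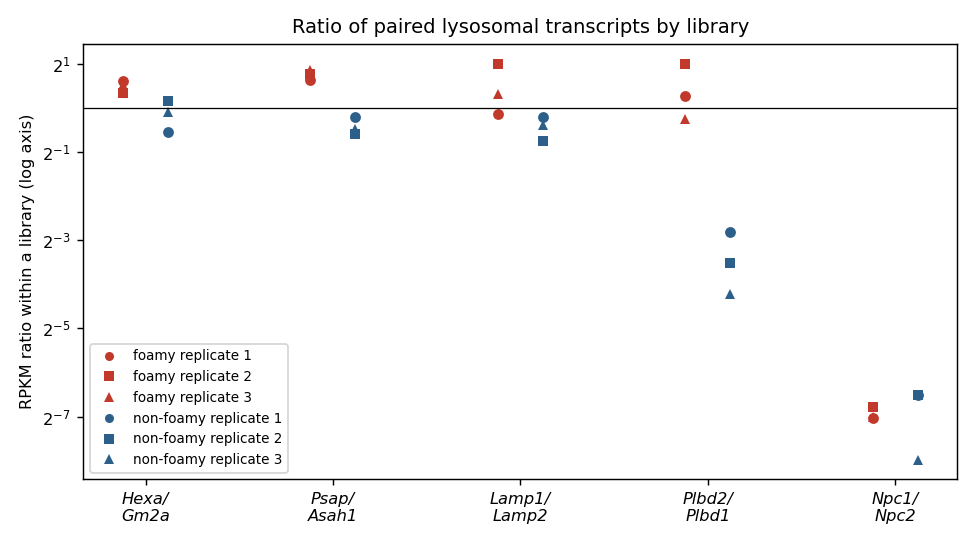
Ratio of deposited RPKM between partner genes within each library (log axis, line at a ratio of 1), red for foamy and blue for non-foamy, with marker shape giving the replicate. The ratio of Psap to Asah1 was 1.55 or more in foamy and 0.86 or less in non-foamy libraries, and the ratio of Npc1 to Npc2 overlapped.

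The SE differed with the level of the gene. Of the 22 members averaging at least 100 CPM over the 6 libraries, 13 rose, with a median SE of 0.19 on the log2 scale, and of the 20 below that level 4 rose, with a median SE of 0.32. The coefficient of variation within a group had a median of 18.3% in foamy and 18.0% in non-foamy libraries. Foamy replicate 2 gave the lowest value of its group in 27 members, at a median log2 distance of -0.16 from the group mean, and foamy replicate 3 the highest in 18.

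Of the 17 calls, 7 held under each of 17 alternative treatments of the data: Pld3, Acp5, Psap, Cd63, Galns, Lipa and Naglu. A further 3, Gla, Npc2 and Grn, were lost only in a test against a 1.5-fold change. The other 7 were lost in that test and in at least 2 others. In the deposited tables, on GRCm38, Psap (ENSMUSG00000004207) lies on chromosome 10 from 60277627 to 60302597 and Cd63 (ENSMUSG00000025351) on chromosome 10 from 128908919 to 128912816. Pld3 (ENSMUSG00000003363) lies on chromosome 7 from 27532000 to 27553218, Acp5 (ENSMUSG00000001348) on chromosome 9 from 22126731 to 22135746, and Lipa (ENSMUSG00000024781) on chromosome 19 from 34492318 to 34527474. Galns (ENSMUSG00000015027) lies on chromosome 8 from 122578238 to 122611487 and Naglu (ENSMUSG00000001751) on chromosome 11 from 101070012 to 101077672. All are protein-coding, and the counts cover their exons together.

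**Figure D5:**
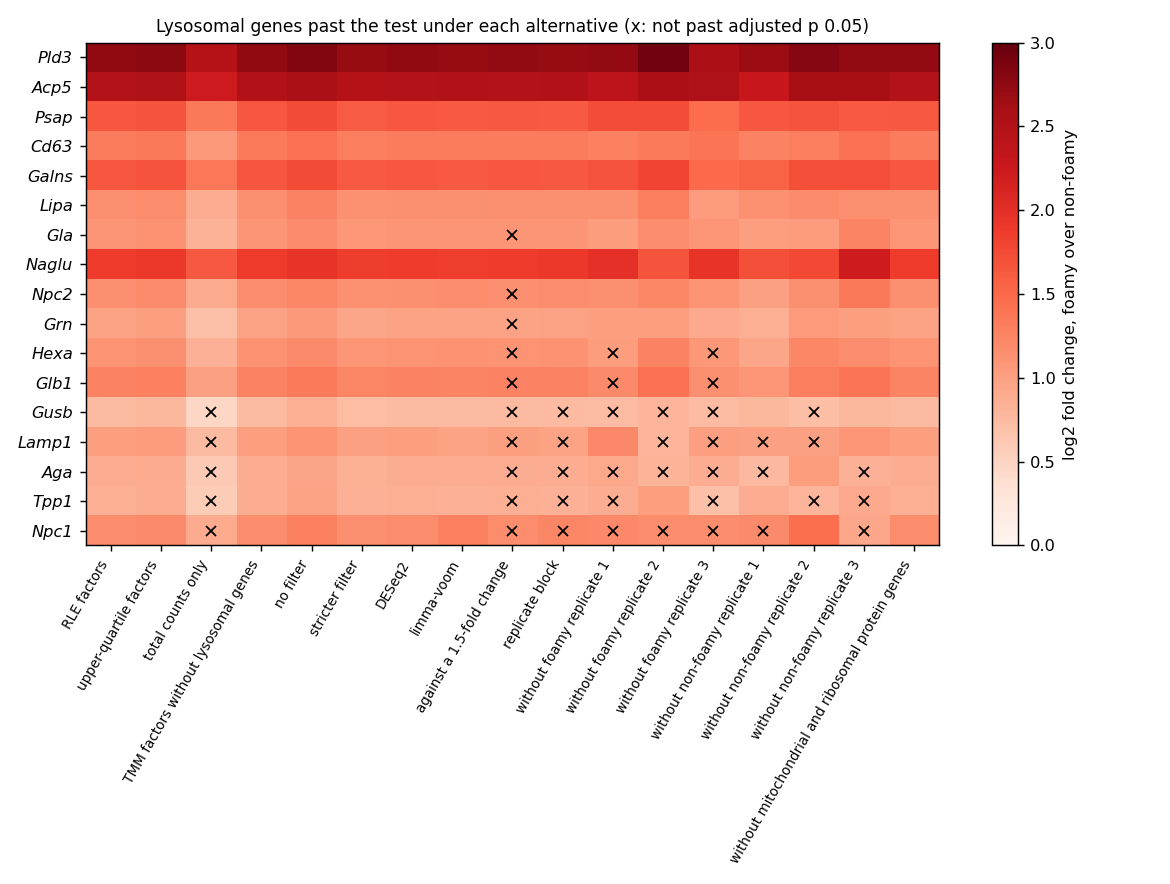
Log2 fold change (color, foamy over non-foamy) of the 17 genes that rose, by row in order of adjusted p, under each of 17 alternatives, by column; a cross marks an adjusted p of 0.05 or more. The rows without a cross are the 7 genes Pld3, Acp5, Psap, Cd63, Galns, Lipa and Naglu.

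Of 69 other lysosomal genes listed by function, 67 could be tested, and 14 rose and 2 fell, with a median log2 fold change of 0.59. Among 25 further hydrolases and soluble proteins 10 rose and 2 fell. Glmp, a glycosylated lysosomal membrane-associated protein, had 736, 579 and 771 CPM in foamy and 250, 287 and 319 in the non-foamy libraries (edgeR log2 fold change 1.29, SE 0.18, adjusted p = 0.0023). Dnase2a, the acid DNase, had 133, 114 and 148 against 49.4, 51.1 and 53.8 CPM (1.36, SE 0.20, edgeR adjusted p = 0.0025).

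The 2 lysosomal genes that fell were Plbd1 and Naaa. Plbd1, a phospholipase B-like paralog of Plbd2, stood at 9.30, 11.1 and 22.6 CPM in foamy and at 76.4, 127 and 146 in the non-foamy libraries (edgeR log2 fold change -3.02, SE 0.38, adjusted p = 0.00091). All foamy values lay far below all non-foamy values, whereas those of Plbd2 lay above them. Per length, Plbd2 to Plbd1 gave 1.20, 1.98 and 0.84 in foamy and 0.14, 0.09 and 0.05 in non-foamy libraries. Naaa, an acid amidase of N-acylethanolamines, stood at 39.4, 30.8 and 22.2 against 43.7, 110 and 92.9 CPM (-1.42, SE 0.35, edgeR adjusted p = 0.038), and its log2 fold change under the 17 alternatives ran from -1.72 to -1.15. The Naaa call was lost when any 1 foamy replicate, or non-foamy replicate 2 or 3, was left out, with limma-voom, with the block and against a 1.5-fold change.

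Of 26 further membrane proteins tested, 3 rose (Cd68, Slc48a1 and Litaf), and among 16 genes of enzyme delivery and activation 1 did. The Slc48a1 and Litaf calls were lost when any 1 library was left out, with the block and with total counts only, and their log2 fold changes under the 17 alternatives ran from 0.73 to 1.14 and from 0.53 to 0.93. The gene of enzyme delivery that rose was Igf2r, the larger of the mannose 6-phosphate receptors that sort hydrolases to lysosomes, at 91.8, 117 and 120 CPM in foamy and 49.1, 32.4 and 40.9 in the non-foamy libraries (edgeR log2 fold change 1.43, SE 0.23, adjusted p = 0.0048). M6pr, the smaller receptor, averaged 463 ± 47.2 against 458 ± 138 CPM (0.02, SE 0.22, edgeR adjusted p = 0.98). Gnptab, which makes the mannose 6-phosphate tag, averaged 71.0 ± 16.7 against 37.5 ± 4.21 CPM (0.92, SE 0.25, edgeR adjusted p = 0.054). Lamp3 and Abcb9 were too low to test.

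Other marker lists moved between the same groups. Of 13 monocyte markers 8 fell in foamy cells, with a summed level of 75.4 to 91.3 against 712 to 1017 CPM, and no marker of the list was at 0 in all libraries. Of 21 immediate early and heat shock genes 13 fell, with 2500 to 3061 against 5603 to 7873 CPM. Among 12 macrophage markers 3 rose (Cd68, Lyz2 and Mertk) and 4 fell (Csf1r, Itgam, Adgre1 and Cd14). The summed T and NK list stood at 344 to 458 against 135 to 153 CPM, nearly all of it Il7r. Il7r and Cd4, the 2 genes of that list that could be tested, rose. The part of these differences in the lysosomal values was not tested. Leaving mitochondrial and ribosomal protein genes out of the table left all 17 member calls in place.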

How the data were processed

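Bulk RNA-seq libraries of foamy and non-foamy intimal macrophages, 3 each, were compared. Per the labels' protocols, cDNA was amplified for 12 cycles and read as single 50-base reads. Tools named in the submitters' processing notes are featureCounts 1.4.5 of Subread and the aligner STAR 2.0.4b, on the GRCm38 build. No source used here gives the strandedness or the treatment of reads that map to several genes, and 11 members share exon bases with another annotated gene. The deposited count of a gene is a whole number of reads with no normalization. Deposited CPM is that count relative to the library total, and deposited RPKM is this CPM per kilobase of all annotated exons of the gene. Both were checked to a tolerance of 1e-06.

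Counts entered the tests. Deposited RPKM served for levels between genes and for ratios within a library, and CPM in the text are TMM-normalized from the counts. The test was the robust quasi-likelihood F-test of edgeR 4.0.16 in R 4.3.3, after filterByExpr and TMM. Benjamini-Hochberg adjustment covered all 11303 genes that passed the filter, with 0.05 as the threshold. An SE is |log2 fold change| over the root of F. The procedure was tested on simulated data. TMM factors were 0.868 to 0.966 for foamy and 1.035 to 1.186 for non-foamy libraries. Symbols were found for 97.26% of gene IDs.

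The members and lists were chosen with earlier results of these data known. All members are described by class; by rule, up to 4 per class with the lowest adjusted p, and any that fell, are given in full. Partner genes and other members given in full were chosen after their values were seen. Same-numbered libraries of the groups did not deviate together (correlations -0.071, -0.023 and -0.031). These values cannot decide whether the numbers pair the libraries, and the labels do not say. No 2 libraries of a group were alike to within sampling noise. Alternatives for scaling were RLE and upper-quartile factors, total counts only, and TMM factors without the members and the other lysosomal genes listed. Others were no filter, a stricter one (10 counts in 3 libraries, mean of 5 CPM), DESeq2 1.42.0 and limma-voom (limma 3.58.1). The rest were a 1.5-fold test, a replicate block, each library left out, and mitochondrial and ribosomal protein genes left out. Promoter letters are RefSeq's for GRCm38.p6.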

Additional observations from a re-analysis of the deposited data

How the results depend on the processing

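The members called higher numbered 17, and 7 against a 1.5-fold change, 12 with total counts only, 12 with the replicate number as a block, 18 with the stricter filter, 20 without a filter, 21 with DESeq2 and 10 to 15 with 1 library left out; 0 were lower under any of these. Of all tested genes 283 were higher and 328 lower; the counts were 165 and 614 with total counts only, 528 and 645 with DESeq2, 105 and 171 against a 1.5-fold change, and 113 to 285 and 158 to 294 with 1 library left out. No filter gave 457 higher, and the replicate block 159 higher and 232 lower. The labels do not say whether the numbers pair the libraries, and why calls were lost under the block was not tested. Of the other lysosomal genes 14 were higher and 2 lower: 8 higher with total counts only, 5 and 1 against a 1.5-fold change, 7 and 1 with the block, 1 lower with limma-voom, and 6 to 11 and 1 to 2 with 1 library left out.

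Sign changed in 7 members, none of them called. With total counts only the log2 fold changes were -0.22 for Idua, -0.0063 for Man2b1, -0.045 for Fuca1, -0.15 for Lamp2, -0.15 for Laptm4a and -0.047 for Ctns, and without a filter Ppt1 gave 0.0082. With 1 library left out, the ranges were -0.19 to 0.38 for Idua, -0.050 to 0.42 for Fuca1, -0.16 to 0.028 for Ppt1, -0.012 to 0.26 for Lamp2, -0.021 to 0.23 for Laptm4a and -0.054 to 0.46 for Ctns. The cause was not tested. Of 713 single-gene values under alternatives, 642 kept direction and side of the threshold. The median SE was 0.32 in members under 100 CPM and 0.19 above that level, and the part of depth in this was not tested.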
